A study of Homo sapiens with 18 samples.

Results

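U2OS is a human osteosarcoma cell line, and the cells studied here carried integrated mCherry-EWS-FLI1, the fusion transcription factor of Ewing sarcoma fused to a red fluorescent protein. They were exposed to 7.5 µM LY2835219 (abemaciclib) for 24 h or for 6 h, and the question was which of the changes seen at 6 h had faded, held or grown by 24 h. The comparison was made of 6 libraries, 3 titled 24 h and 3 titled 6 h, out of 18 in the series, and 3 libraries of untreated mCherry-EWS-FLI1 cells served as the starting level. All 9 libraries came from cells with the same construct. The other 9 libraries of the series came from untreated cells with other constructs. They enter through the shared estimate of spread and the choice of genes tested. That choice kept 16786 genes with 18 libraries and 16146 with the 9 EWS-FLI1 libraries. The times are those of the titles and sample characteristics. The treatment text of the same labels names 3 h and 6 h instead, a conflict the labels leave unresolved. The labels do not state a vehicle for the untreated cells or whether the line was a clone, and replicates are described only as biological, so p-values measure the spread between these libraries and not between independently made lines.

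LY2835219 inhibits the cyclin D kinases CDK4 and CDK6. These kinases phosphorylate the retinoblastoma protein RB, which otherwise holds the E2F transcription factors in check and keeps the genes of the G1-S transition low; mitotic genes are switched on later in the cycle, largely through MYBL2 and FOXM1 acting with the MuvB complex. At high concentrations abemaciclib also inhibits further kinases. Transcripts with short half-lives, among them those of cytokines, immediate early genes and signalling feedback inhibitors, can rise or fall within hours of a change in kinase activity.

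PolyA RNA was quantified as estimated counts per gene, with 18367954 to 19576227 counts in each of the 6 treated libraries. Levels are counts per 1000000 (CPM) after TMM scaling and differences are log2 changes of 24 h minus 6 h with a standard error (SE), tested with edgeR's quasi-likelihood test and adjusted by Benjamini-Hochberg over 16786 genes. A gene is called when the adjusted p is under 0.05. Mitochondrial genes took 6.16 ± 0.380% of counts at 24 h and 6.14 ± 0.146% at 6 h (SD, n = 3 each; exact two-sided permutation p = 1), and transcripts annotated as retaining an intron took 4.04 ± 0.282% at 24 h and 4.14 ± 0.0502% at 6 h (exact two-sided permutation p = 0.7; 3 against 3 libraries cannot give less than 0.1). In untreated cells the shares averaged 4.8 ± 0.277% for mitochondrial genes and 3.42 ± 0.197% for retained introns (SD, n = 3 each), below the mean of either treated group, and the part of this in the contrasts with untreated cells was not tested. The osteosarcoma matrix genes COL1A1 and SPARC stood at 2464 and 2328 CPM at 24 h, and at 3016 and 2887 CPM at 6 h. The bone factor gene RUNX2 averaged 83.8 ± 7.06 CPM at 24 h and 46.4 ± 1.1 CPM at 6 h. ALPL, bone alkaline phosphatase, averaged 8.77 ± 0.536 CPM at 24 h and 12.8 ± 0.307 CPM at 6 h (SD, n = 3 each).

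The 4 genes followed in every library moved in opposite pairs. GAS1 (hg38, ENSG00000180447, chromosome 9, 86944363 to 86947189, minus strand), a surface protein that binds Hedgehog ligands and was first described in growth-arrested cells, had 6.84, 8.36 and 5.18 CPM at 24 h, against 0.183, 0.821 and 0.558 CPM at 6 h. SMAD6 (hg38, ENSG00000137834, chromosome 15, 66702228 to 66782848, plus strand), an intracellular inhibitor of BMP receptors, had 28.6, 27.5 and 20.4 CPM at 24 h, against 2.69, 3.41 and 2.42 CPM at 6 h. For both genes the 24 h libraries lay above every 6 h library, with a log2 change of 3.69 ± 0.29 (SE, adjusted p = 9.63e-11) for GAS1 and 3.16 ± 0.17 (SE, adjusted p = 2.14e-13) for SMAD6. Untreated cells had 9.61, 9.97 and 7.2 CPM for GAS1 and 37.1, 55 and 43.5 CPM for SMAD6, so the 24 h libraries stood closer to the starting level than the 6 h libraries did: the 24 h minus untreated change was -0.39 for GAS1 (adjusted p = 0.106) and -0.83 for SMAD6 (adjusted p = 4.1e-06).

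BCL2A1 (hg38, ENSG00000140379, chromosome 15, 79960889 to 79971446, minus strand), an anti-apoptotic BCL2 protein and NF-kB target, had 0.424, 0.165 and 0.0518 CPM at 24 h, against 11.7, 21 and 15.6 CPM at 6 h. CXCL8 (hg38, ENSG00000169429, chromosome 4, 73740506 to 73743716, plus strand), the neutrophil chemokine interleukin 8, had 1.96, 1.32 and 0.933 CPM at 24 h, against 26.5, 44.2 and 49 CPM at 6 h. Here every 24 h library was below every 6 h library. The log2 changes were -6.20 ± 0.46 (SE, adjusted p = 5.3e-11) for BCL2A1 and -4.82 ± 0.33 (SE, adjusted p = 1.2e-11) for CXCL8. Untreated libraries had 0.307, 0.577 and 0.806 CPM for BCL2A1 and 9.71, 5.14 and 6.5 CPM for CXCL8. CXCL8 was thus lower at 24 h than before treatment, by a log2 change of -2.34 (adjusted p = 4.39e-06), whereas for BCL2A1 the 24 h minus untreated change of -1.37 was not called (adjusted p = 0.0599).

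**Figure D1:**
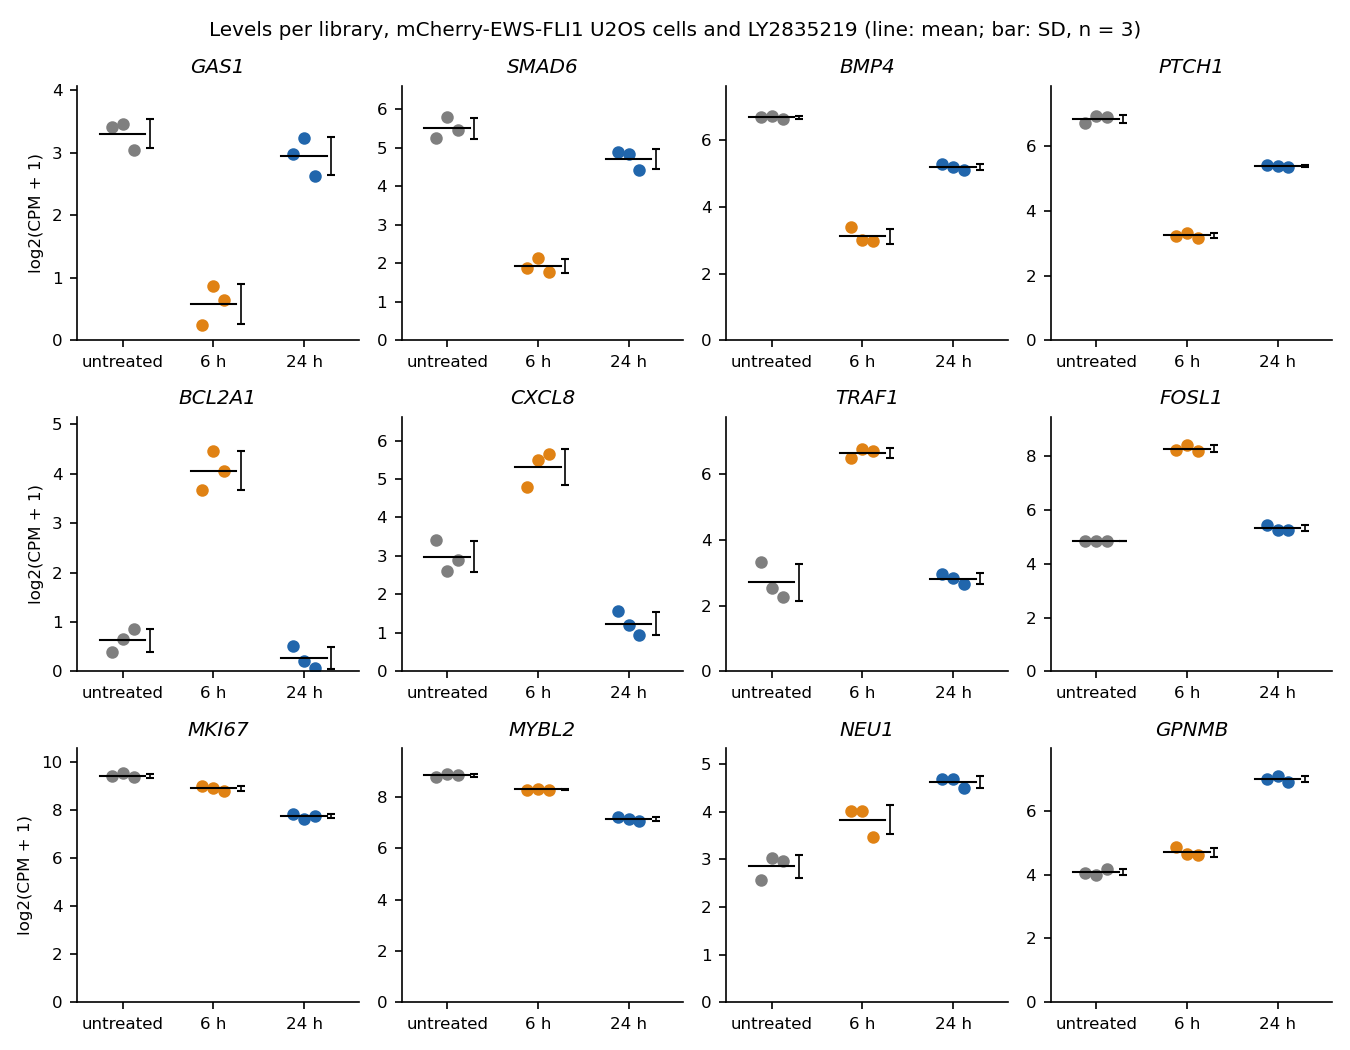
Level of 12 genes in each library of mCherry-EWS-FLI1 U2OS cells, as log2(CPM + 1), for untreated cells, 6 h and 24 h of LY2835219; points are libraries, the line is the mean and the bar the SD of 3. GAS1, SMAD6, BMP4 and PTCH1 dip at 6 h, BCL2A1, CXCL8, TRAF1 and FOSL1 peak at 6 h, MKI67 and MYBL2 step down at each time, and NEU1 and GPNMB step up.

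The 2 genes joined in the fusion, FLI1 and EWSR1, were both lower at 24 h than at 6 h. Counts of either gene can mix the endogenous gene with the construct. FLI1 had 244, 240.5 and 225 CPM at 24 h, against 400.1, 430.4 and 388 CPM at 6 h. Untreated cells had 265, 232 and 245 CPM. EWSR1 had 799, 798 and 738 CPM at 24 h, against 1224, 1190.0 and 1160.0 CPM at 6 h. Untreated cells had 742, 724 and 752 CPM. The log2 change was -0.78 ± 0.09 (SE, adjusted p = 4.17e-08) for FLI1 and -0.61 ± 0.05 (SE, adjusted p = 7.4e-11) for EWSR1. Against untreated cells the 24 h change was -0.07 for FLI1 (adjusted p = 0.569) and 0.07 for EWSR1 (adjusted p = 0.206), neither of them called.

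Most of the transcriptome differed between the 2 times. By adjusted p, 10554 of 16786 genes were called between 24 h and 6 h (62.9%), 5465 of them higher (32.6%) and 5089 lower (30.3%) at 24 h. With an absolute log2 change of at least 1 as well, 2142 genes were higher (12.8%) and 1255 lower (7.48%). The libraries of 24 h and 6 h did not overlap for 5743 genes that were higher (34.2%) and 5382 that were lower (32.1%). The excess of rises over falls rested on the scaling: 51.8% of calls were rises under TMM, 49.4% with DESeq2 size factors, 59.4% with upper-quartile factors and 70.4% with no scaling factors. The median log2 change of all genes was 0.05 under TMM, 0.02 with DESeq2 size factors, 0.15 with upper-quartile factors and 0.31 with no factors, and all changes below are relative to the TMM scaling.

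To sort the early changes, a gene was taken as changed early when it was called at 6 h minus untreated with an absolute log2 change of at least 1. At 6 h minus untreated, 10890 genes were called (64.9%), 5304 higher (31.6%) and 5586 lower (33.3%), and the early rule held for 1496 rises (8.91% of genes tested) and 2405 falls (14.3%). At 24 h minus untreated, 8051 genes were called (48.0%), 3919 higher (23.3%) and 4132 lower (24.6%), of which 834 rises (4.97%) and 978 falls (5.83%) had a log2 change of at least 1. An early change was counted as faded when the gene was called between 24 h and 6 h in the opposite direction, as grown when called in the same direction, and as held when it was not called between the 2 times but was still called against untreated cells in the early direction. The 3 contrasts share libraries: a high 6 h value by itself makes both an early rise and a fade more likely, so the class sizes are a description and were not tested.

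Fading was the most frequent course in both directions. Of the early rises, 1087 (72.7%) faded, 228 (15.2%) held, 46 (3.07%) grew and 135 (9.02%) were undecided because they were called neither between 24 h and 6 h nor between 24 h and untreated cells. Of the early falls, 1937 (80.5%) faded, 280 (11.6%) held, 47 (1.95%) grew and 141 (5.86%) were undecided. The median early rise was 1.52 on the log2 scale at 6 h and 0.54 at 24 h, each against untreated cells, and the median early fall was -1.56 at 6 h and -0.43 at 24 h. Per gene, the median share of the early log2 change left at 24 h was 33.5% for rises and 25.3% for falls. With no scaling factors the early rises numbered 984, of which 664 faded, and leaving out 1 library of 24 h in turn raised the undecided rises to between 207 and 224.

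The faded genes ended at 3 different places. Among faded rises, 456 were still above untreated cells at 24 h, 544 were not called against untreated cells and 87 had crossed to below them. Among faded falls, 812 were still below, 972 were not called and 153 had crossed to above (100 without untreated replicate 3). Of the held genes, a 95% interval of the 24 h minus 6 h change within ±0.5 was reached by 33 of 228 rises and 64 of 280 falls, so for most held genes these data do not fix the 24 h level to within that margin of the 6 h level. A further 234 genes rose and 175 fell late, meaning that they were not called at 6 h and were called at 24 h, with a log2 change of at least 1 against untreated cells and a call against 6 h.

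**Figure D2:**
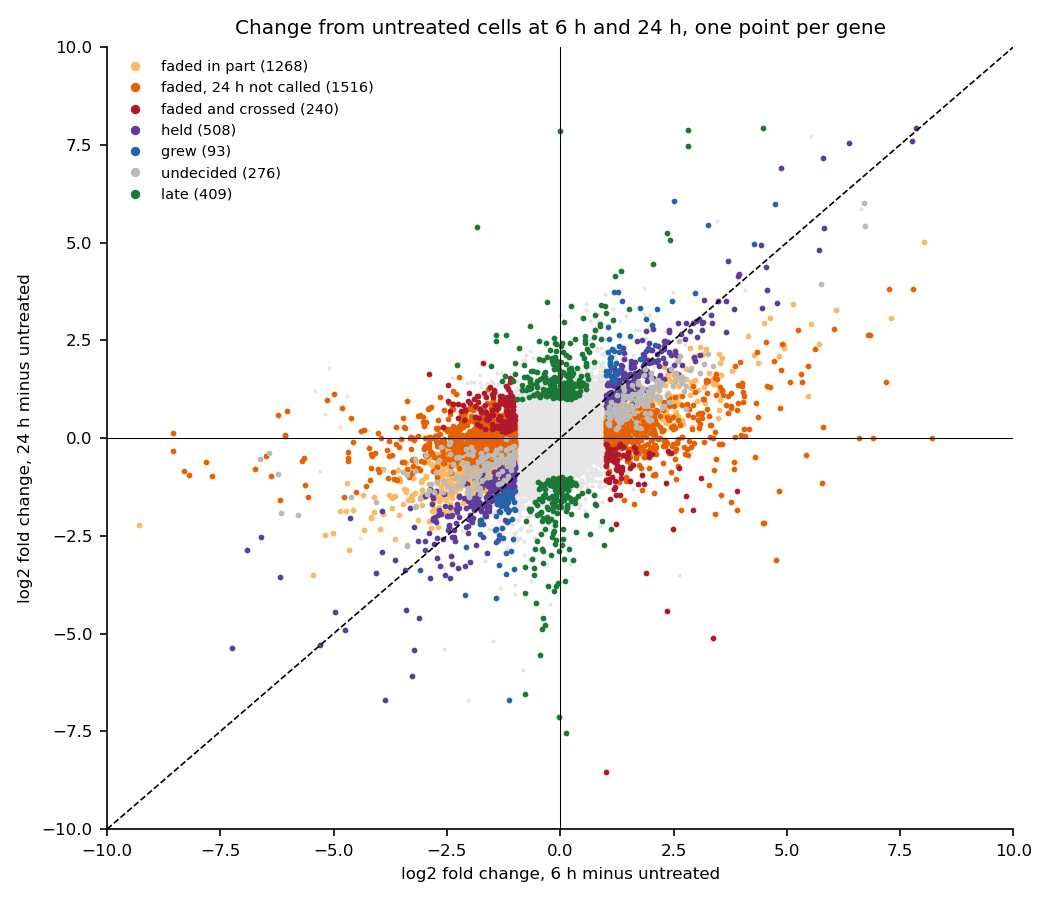
Log2 change from untreated cells at 6 h (x axis) and at 24 h (y axis), 1 point per gene; colours give the course of 3901 genes changed early and of 409 late genes, grey the other genes, and the dashed line marks equal changes. Faded genes lie between the dashed line and the horizontal axis or beyond that axis; 1268 faded in part, 1516 faded to a level not called against untreated cells and 240 crossed.

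**Figure D3:**
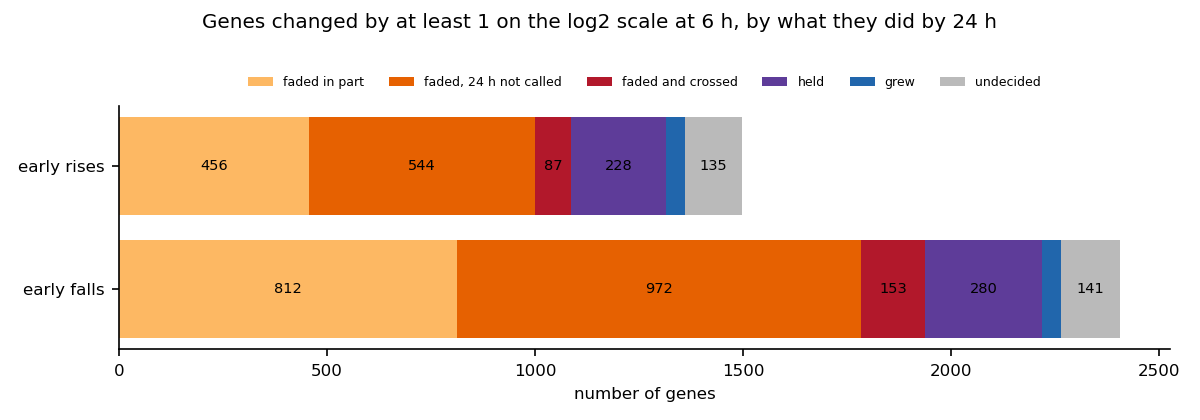
Number of genes (x axis) in each course by 24 h for the 1496 early rises and the 2405 early falls. The faded classes take up 1087 of the rises and 1937 of the falls, and the unlabelled blue segments are the 46 and 47 genes that grew.

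The 12 largest falls at 24 h against 6 h were mostly of genes with a peak at 6 h and a low level before treatment. XIRP1, an actin-binding protein of striated muscle, had no count in the 3 libraries at 24 h, against 243 counts at 6 h, which puts 6 h at least 78.9-fold higher when 3 counts over the group are taken as the floor; in CPM it had 0, 0 and 0 CPM at 24 h, against 4.16, 5.62 and 5.34 CPM at 6 h. Untreated cells had 2.4, 2.15 and 2.95 CPM. CD200R1, an inhibitory receptor of the immunoglobulin family, had 2 counts at 24 h and 249 at 6 h, and 0.0866 CPM in untreated cells. NPR3, the clearance receptor of natriuretic peptides, had 0.371, 0.495 and 0.674 CPM at 24 h, against 33.6, 31.7 and 25.4 CPM at 6 h, with a log2 change of -5.86 ± 0.31 (SE, adjusted p = 1.2e-13); untreated cells had 0.409, 0.735 and 0.967 CPM. MYCT1, a gene named as a MYC target, had 3.77, 3.58 and 4.72 CPM at 24 h, against 68.1, 82.3 and 77.1 CPM at 6 h and only 0.562, 0.472 and 0.376 CPM in untreated cells, so after a log2 fall of -4.23 ± 0.20 (SE, adjusted p = 2.59e-14) its 24 h minus untreated change was still 3.08. SELPLG, the P-selectin ligand, had 1.7, 1.98 and 0.881 CPM at 24 h, against 31.5, 36.4 and 27.8 CPM at 6 h, a log2 change of -4.39 ± 0.29 (SE, adjusted p = 4.45e-12). KCNS1, a modifier subunit of potassium channels, changed by -4.45. The libraries of the 2 times did not overlap for any of the 12 largest falls, as the rule for naming them requires.

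KIAA1210 was the exception among the largest falls, because it continued in its early direction. It had 44.8, 49.6 and 41.7 CPM in untreated cells, 20.3, 20.9 and 21.2 CPM at 6 h and 0.424, 0.495 and 0.363 CPM at 24 h. The 24 h libraries were the lowest of the 9, and the log2 change against 6 h was -5.59 ± 0.18 (SE, adjusted p = 3.15e-17). No function is given here for this gene.

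The largest rises were mostly returns. IQCN had 6.84, 6.49 and 5.81 CPM at 24 h, against 0.367, 0.379 and 0.0621 CPM at 6 h, a log2 change of 4.53 ± 0.43 (SE, adjusted p = 2.92e-09), with 2.25, 1.68 and 2.2 CPM in untreated cells, so it ended above its start. CXXC4, a CXXC zinc finger protein that inhibits Wnt signalling, had 9.87, 12 and 10.6 CPM at 24 h, against 1.1, 1.45 and 1.12 CPM at 6 h. Untreated cells had 18.1, 19.1 and 18.5 CPM. EYA1, a developmental transcription cofactor with phosphatase activity, had 8.38, 8.31 and 7.98 CPM at 24 h, against 0.734, 1.26 and 1.24 CPM at 6 h. Untreated cells had 7.1, 9.24 and 8.0 CPM. FAM171A2 had 23, 26.4 and 19.3 CPM at 24 h, against 2.94, 1.89 and 2.73 CPM at 6 h. Untreated cells had 21.7, 24.8 and 24.9 CPM. For EYA1, FAM171A2 and RFXAP, a subunit of the RFX complex that activates MHC class II genes, the 24 h minus untreated change was 0.02, -0.06 and 0.01, and none of these was called. GRIN2C, an NMDA receptor subunit, went past its starting level, with 8.79, 8.92 and 11.6 CPM in untreated cells, 3.12, 3.41 and 1.74 CPM at 6 h and 21, 18.4 and 21.9 CPM at 24 h.

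NF-kB proteins are held in the cytoplasm by the IκB inhibitors until those are degraded; the freed dimers then switch on chemokines, survival genes and their own inhibitors, so the response carries its own brake. All 16 measured members of the NF-kB list were lower at 24 h than at 6 h (16 of 16 called, against 30.3% of all genes). All 16 had been called higher at 6 h than in untreated cells, against 31.6% of all genes. Their median log2 change was -1.63 between 24 h and 6 h, after 1.96 at 6 h, and 0.04 at 24 h against untreated cells. The count of 16 lower and none higher was the same under DESeq2 size factors, upper-quartile factors, no factors, transcript length offsets and limma on log2(TPM + 1). List members named here and below beyond the 4 with the largest change of their list were picked after their values were seen. List counts between 24 h and 6 h are to be read against the 32.6% of all genes called higher and 30.3% called lower.

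The list covered subunits, inhibitors and targets alike. Among subunits, NFKB1, the p105 precursor of p50, averaged 31.4 ± 4.87 CPM at 24 h and 170.2 ± 13.1 CPM at 6 h, RELB averaged 25 ± 0.899 CPM at 24 h and 129 ± 0.567 CPM at 6 h and RELA, the p65 subunit, averaged 120.3 ± 7.8 CPM at 24 h and 210.4 ± 15.7 CPM at 6 h (SD, n = 3 each). Among inhibitors, NFKBIE, which encodes IκBε, had 19.2, 15.3 and 17.3 CPM at 24 h, against 94.4, 113 and 116 CPM at 6 h, a log2 change of -2.64 ± 0.11 (SE, adjusted p = 1.78e-15). NFKBIA, which encodes IκBα, averaged 40.5 ± 2.3 CPM at 24 h and 131 ± 12.4 CPM at 6 h. TNFAIP3, which encodes the ubiquitin-editing enzyme A20, had 16.1, 14.5 and 15.6 CPM at 24 h, against 87.7, 102 and 94.1 CPM at 6 h, a log2 change of -2.62 ± 0.11 (SE, adjusted p = 2.36e-15). Among targets, TRAF1, an adaptor of TNF receptors, had 6.84, 6.16 and 5.29 CPM at 24 h, against 87.6, 106 and 104 CPM at 6 h, a log2 change of -4.02 ± 0.19 (SE, adjusted p = 1.77e-14). BIRC3, the ubiquitin ligase cIAP2, had 10.5, 9.9 and 12.7 CPM at 24 h, against 95.1, 101 and 124 CPM at 6 h, a log2 change of -3.27 ± 0.15 (SE, adjusted p = 1.43e-14). For TRAF1 and BIRC3 the 24 h minus untreated changes were 0.05 and -0.11, neither called, and for TNFAIP3 it was 0.29 (adjusted p = 0.0452). TNIP1, an A20-binding inhibitor, moved least, averaging 88.5 ± 6.1 CPM at 24 h and 137 ± 7.17 CPM at 6 h.

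Chemokine and cytokine genes went the same way with exceptions. Of 18 measured members, 13 were called lower and 3 higher at 24 h, with a median log2 change of -1.54. CCL2, which recruits monocytes, had 1.06, 1.76 and 1.35 CPM at 24 h, against 32.7, 44.3 and 36.7 CPM at 6 h, a log2 change of -4.76 ± 0.25 (SE, adjusted p = 1.43e-13). CCL20, a ligand of CCR6, had 0.424, 0.495 and 0.933 CPM at 24 h, against 8.75, 13.7 and 13.4 CPM at 6 h, a log2 change of -4.25 ± 0.37 (SE, adjusted p = 8.51e-10). Both ended below untreated cells, which had 5.98, 3.62 and 5.32 CPM for CCL2 and 2.4, 2.0 and 0.806 CPM for CCL20. CXCL5 and CCL7 were close to the floor at 24 h, with 1 and 2 counts over 3 libraries, against 120 and 84 counts at 6 h. LIF, a cytokine of the interleukin 6 family, averaged 189.8 ± 1.42 CPM at 24 h and 894 ± 30.2 CPM at 6 h (SD, n = 3 each) and 139 CPM in untreated cells. The 3 members that rose were CXCL12, CCL5 and TSLP, with log2 changes of 3.55, 3.06 and 1.19. CXCL12, the ligand of CXCR4, had grown in steps, with 0, 0 and 0.161 CPM in untreated cells, 0.428, 0.253 and 0.31 CPM at 6 h and 4.72, 4.07 and 3.06 CPM at 24 h. CXCL14 did not follow the early peak of the others: it averaged 522 CPM in untreated cells, 418 CPM at 6 h and 55.1 CPM at 24 h, a log2 change of -2.92 ± 0.12 (SE, adjusted p = 1.84e-15) between 24 h and 6 h.

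The promoters of CXCL8, CCL20, TNFAIP3 and BIRC3 are printed to show the letters around the κB-like match upstream of genes that peaked at 6 h. Each line is the 250 bases before the RefSeq start of the gene (GRCh38.p14), 5′ to 3′ on the gene's strand, with matches to GGNNNTTCC on either strand in capitals. CXCL8 lies at chr4:73740319-73740568, plus strand, with a match that starts 91 bases before the gene. CCL20 lies at chr2:227813592-227813841, plus strand, with a match at 79 bases. TNFAIP3 lies at chr6:137867009-137867258, plus strand, with matches at 67 and 55 bases. BIRC3 lies at chr11:102317234-102317483, plus strand, with a match at 199 bases.
CXCL8: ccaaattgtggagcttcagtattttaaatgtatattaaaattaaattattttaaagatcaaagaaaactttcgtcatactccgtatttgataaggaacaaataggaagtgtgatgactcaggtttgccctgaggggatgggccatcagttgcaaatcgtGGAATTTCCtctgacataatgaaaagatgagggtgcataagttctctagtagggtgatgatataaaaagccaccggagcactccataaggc
CCL20: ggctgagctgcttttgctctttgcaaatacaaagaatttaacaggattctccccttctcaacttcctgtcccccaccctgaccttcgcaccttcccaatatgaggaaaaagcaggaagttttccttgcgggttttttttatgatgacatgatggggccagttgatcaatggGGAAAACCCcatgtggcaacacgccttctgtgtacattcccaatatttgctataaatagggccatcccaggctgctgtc
TNFAIP3: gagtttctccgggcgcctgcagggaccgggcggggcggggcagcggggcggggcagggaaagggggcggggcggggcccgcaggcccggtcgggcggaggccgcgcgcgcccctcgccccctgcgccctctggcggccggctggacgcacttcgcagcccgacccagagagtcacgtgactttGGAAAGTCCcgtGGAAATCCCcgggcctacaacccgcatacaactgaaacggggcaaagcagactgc
BIRC3: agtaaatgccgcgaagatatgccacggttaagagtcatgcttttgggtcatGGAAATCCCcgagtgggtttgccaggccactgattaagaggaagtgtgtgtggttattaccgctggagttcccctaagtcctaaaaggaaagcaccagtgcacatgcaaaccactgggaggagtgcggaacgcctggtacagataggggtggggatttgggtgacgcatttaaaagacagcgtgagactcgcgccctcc

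The letters GGNNNTTCC, searched on both strands over the 250 bases, occurred in 17.1% of 27305 promoters, in 19.6% of the 11860 promoters of protein-coding genes tested, in 57.1% of 14 promoters of the NF-kB list and in 50% of 14 promoters of the chemokine list. They also occurred in 35.1% of 37 promoters of the E2F list, and in 33.3% of 63 promoters of early rises that crossed. The window of BCL2A1 held no match. The lists were written with such target genes in mind, so these shares describe the lists and are no test. The chemokine list had the AP-1 letters TGANTCA in 42.9% of its promoters, against 4.33% of tested protein-coding genes, and the NF-kB list had them in none of 14.

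Immediate early genes and the feedback inhibitors of MAP kinase signalling fell together from their 6 h levels. Of 23 immediate early genes, 16 were called lower and 2 higher at 24 h (median log2 change -0.81), and of 18 MAP kinase feedback genes 16 were lower and none higher (median -0.89; with no scaling factors 14 lower and 1 higher). FOSL1, the AP-1 subunit FRA1, had 27.7, 27.5 and 27.5 CPM in untreated cells, 295, 340.2 and 292 CPM at 6 h and 42.5, 37.6 and 37 CPM at 24 h, a 24 h minus 6 h change of -2.99 ± 0.08 (SE, adjusted p = 2.63e-18). NR4A1, an orphan nuclear receptor, had 34.2, 36.4 and 33.6 CPM in untreated cells, 66.5, 79.2 and 76.8 CPM at 6 h and 12.8, 11.8 and 11 CPM at 24 h. MAFF, a small MAF protein, had 35.4, 32.6 and 39 CPM in untreated cells, 98.8, 106 and 107 CPM at 6 h and 18, 16.4 and 15.8 CPM at 24 h. FOSL1 was still above untreated cells at 24 h, while NR4A1 and MAFF had dropped below them, by log2 changes of -1.55 and -1.09. The 2 members that rose were NR4A2 and FOSL2, at 1.35 and 0.34, the first as the return of an early fall of -2.29.

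Among the MAP kinase brakes, DUSP5, a nuclear ERK phosphatase, had 13.3, 12.6 and 12.8 CPM at 24 h, against 56.3, 75.1 and 63.4 CPM at 6 h, a log2 change of -2.33 ± 0.10 (SE, adjusted p = 3.27e-15). Untreated cells had 15.3, 14.5 and 15.4 CPM. ERRFI1, an inhibitor of the EGF receptor, had 37.2, 41.3 and 38.1 CPM at 24 h, against 142, 186 and 165 CPM at 6 h, a log2 change of -2.08 ± 0.11 (SE, adjusted p = 1.28e-13), and ended below the 94.7, 83 and 94.8 CPM of untreated cells. SPRY2, a Sprouty inhibitor of receptor tyrosine kinase signalling, had 8.28, 11.7 and 8.76 CPM at 24 h, against 31.1, 31.8 and 30.6 CPM at 6 h. The ETS factors ETV4 and ETV5, outputs of ERK signalling, fell at each step: ETV4 averaged 115 CPM in untreated cells, 91.2 CPM at 6 h and 54.2 CPM at 24 h and ETV5 averaged 64.7 CPM in untreated cells, 43.5 CPM at 6 h and 27.1 CPM at 24 h. DUSP1 and DUSP6 were not called between 24 h and 6 h, with log2 changes of 0.05 (95% interval -0.15 to 0.25) and -0.51 (95% interval -1.56 to 0.55).

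Genes of the actin-linked SRF and YAP programmes fell too. SRF with its MRTF and myocardin cofactors drives actin and smooth muscle genes, and YAP with TEAD drives CTGF and CYR61. Of 16 SRF and muscle genes, 14 were lower and none higher (median -0.91), and of 18 YAP/TEAD targets 12 were lower and 3 higher (median -0.73). TAGLN, or transgelin, had 151, 117 and 149 CPM in untreated cells, 302, 321 and 289 CPM at 6 h and 96.7, 95.1 and 100.4 CPM at 24 h. ZYX, the focal adhesion protein zyxin, had 150.4, 137 and 135 CPM in untreated cells, 371, 399 and 342 CPM at 6 h and 119, 132 and 109.6 CPM at 24 h. TAGLN and ZYX rose first and then fell below untreated cells, while CTGF had 482, 444 and 412 CPM in untreated cells, 256, 276 and 235 CPM at 6 h and 69.2, 75 and 68.2 CPM at 24 h, falling at both steps with a 24 h minus 6 h change of -1.85 ± 0.07 (SE, adjusted p = 2.79e-16). ACTA2, smooth muscle actin, kept part of its early rise, with 3.85 CPM in untreated cells, 29.4 CPM at 6 h and 16.1 CPM at 24 h, and MYOCD, the myocardin gene itself, held its early fall, with 8.33, 15.4 and 8.06 CPM in untreated cells, 0.183, 0.316 and 0.496 CPM at 6 h and 0, 0.88 and 0.57 CPM at 24 h and a 24 h minus 6 h change of 0.53 that was not called (95% interval -0.84 to 1.90).

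In the cell cycle the 2 sets of genes parted, the G1-S list with shares nearer to those of all genes. The E2F and G1-S list had 43 members, of which 40 had been called lower at 6 h than in untreated cells (33.3% of all genes). At 24 h against 6 h, 19 were called higher (44.2%, against 32.6% of all genes), 15 lower (34.9%, against 30.3%) and 9 neither. The median was 0.15, against 0.05 for all genes. The G2/M list had 38 members, of which 37 had been lower at 6 h. At 24 h, 23 were lower still (60.5%, against 30.3% of all genes), 6 were higher (15.8%, against 32.6%) and 9 were not called. The median of this list was -0.34. Against untreated cells, 41 of 43 and 38 of 38 members were lower at 24 h (24.6% of all genes), with medians of -1.01 and -1.10. The G1-S split moved with the scaling, from 19 higher and 17 lower with DESeq2 size factors to 25 higher and 10 lower with none, and the G2/M split from 6 and 24 to 12 and 17; neither majority reversed. With limma on log2(TPM + 1), 14 G2/M genes were lower and 8 higher. In bulk RNA, fewer cells in a cycle phase and less RNA per cell cannot be told apart.

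Some G1-S genes recovered part of their early loss by 24 h. POLA2, a subunit of DNA polymerase alpha, had 17, 11.7 and 14.6 CPM at 24 h, against 4.83, 2.08 and 3.79 CPM at 6 h, a log2 change of 2.01 ± 0.18 (SE, adjusted p = 1.78e-09). Untreated cells had 34.5, 40.5 and 38.3 CPM. BRCA1, a homologous recombination protein, had 32.8, 30.5 and 36.5 CPM at 24 h, against 10.7, 11.1 and 10.5 CPM at 6 h, a log2 change of 1.63 ± 0.09 (SE, adjusted p = 6.11e-13). Untreated cells had 63, 66.5 and 66.6 CPM. MCM3, a subunit of the replicative helicase, had 135, 129 and 121 CPM at 24 h, against 61, 57.5 and 55.7 CPM at 6 h, a log2 change of 1.14 ± 0.05 (SE, adjusted p = 2.12e-14). Untreated cells had 246, 251 and 248 CPM. In all 3 genes the 24 h libraries lay between the 6 h and the untreated libraries. E2F1 and E2F2, activators of the programme, rose by 0.78 and 0.96 after early changes of -2.65 and -2.84. Against this, TK1, thymidine kinase, had 89.1, 99.9 and 95.3 CPM at 24 h, against 193, 203 and 199 CPM at 6 h, a log2 change of -1.07 ± 0.06 (SE, adjusted p = 2.83e-13). Untreated cells had 269, 296 and 289 CPM. MCM7, another helicase subunit, averaged 591 CPM in untreated cells, 365 CPM at 6 h and 204 CPM at 24 h, and so did not share the recovery of MCM2, MCM3, MCM4 and MCM6, which rose by 0.69, 1.14, 0.47 and 0.55; MCM5 was not called, at -0.01.

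Of the mitotic genes, MYBL2, the transcription factor B-MYB, had 429.5, 474 and 458 CPM in untreated cells, 308, 317 and 306 CPM at 6 h and 145, 141 and 131 CPM at 24 h. MKI67, which encodes the Ki-67 antigen of cycling cells, had 675, 735 and 660.1 CPM in untreated cells, 504, 480.4 and 443 CPM at 6 h and 229, 199 and 217 CPM at 24 h. Both stepped down at each time with no overlap between the 24 h and 6 h libraries, and the 24 h minus 6 h changes were -1.16 ± 0.05 (SE, adjusted p = 1.88e-14) and -1.15 ± 0.07 (SE, adjusted p = 4.66e-13). BIRC5, the spindle protein survivin, had 248, 278 and 248 CPM in untreated cells, 239.9, 225 and 228 CPM at 6 h and 120.4, 121 and 120.1 CPM at 24 h, so most of its fall came after 6 h. FOXM1, CCNB1, CDK1 and PLK1, the mitotic transcription factor, cyclin and kinases, were lower at 24 h, with log2 changes of -0.86, -0.79, -0.69 and -0.50. HMMR, a spindle-associated hyaluronan receptor, went the other way, with 23.7, 24.2 and 28.6 CPM at 24 h, against 12.1, 12.1 and 15.6 CPM at 6 h, a log2 change of 0.94 ± 0.14 (SE, adjusted p = 1.79e-06), as did the phosphatase gene CDC25C at 0.84.

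Promoters of E2F1 and MCM6, which regained part of their early loss, and of CDK1 and PLK1, which fell further, are shown with the motif of each list in capitals. For E2F1 (chr20:33686386-33686635, minus strand) and MCM6 (chr2:135876444-135876693, minus strand) the capitals mark TTTNNCGC, the letters of the core of the E2F site. For CDK1 (chr10:60778081-60778330, plus strand) and PLK1 (chr16:23678639-23678888, plus strand) they mark TTTGAA, the letters of the cell cycle homology region CHR. Whether any marked match acts as such a site was not tested. E2F1 had matches at 122, 33, 20 and 14 bases before its start and MCM6 at 152, 148, 90 and 86 bases, in part overlapping on the 2 strands. The CHR letters lay 161 bases before CDK1 and 29 bases before PLK1.
E2F1: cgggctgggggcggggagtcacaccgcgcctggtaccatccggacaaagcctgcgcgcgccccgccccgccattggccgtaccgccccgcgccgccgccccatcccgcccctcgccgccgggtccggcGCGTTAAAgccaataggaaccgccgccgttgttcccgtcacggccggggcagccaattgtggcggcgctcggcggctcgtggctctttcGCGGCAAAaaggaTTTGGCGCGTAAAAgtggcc
MCM6: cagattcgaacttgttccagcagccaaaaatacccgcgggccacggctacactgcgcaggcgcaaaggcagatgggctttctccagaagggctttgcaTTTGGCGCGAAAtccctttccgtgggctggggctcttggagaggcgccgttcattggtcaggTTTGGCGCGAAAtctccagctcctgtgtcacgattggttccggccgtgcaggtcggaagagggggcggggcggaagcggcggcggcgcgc
CDK1: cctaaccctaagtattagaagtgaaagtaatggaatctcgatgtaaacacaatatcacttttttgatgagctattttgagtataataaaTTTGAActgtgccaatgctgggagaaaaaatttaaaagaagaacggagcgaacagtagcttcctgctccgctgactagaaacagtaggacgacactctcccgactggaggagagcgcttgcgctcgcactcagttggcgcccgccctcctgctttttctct
PLK1: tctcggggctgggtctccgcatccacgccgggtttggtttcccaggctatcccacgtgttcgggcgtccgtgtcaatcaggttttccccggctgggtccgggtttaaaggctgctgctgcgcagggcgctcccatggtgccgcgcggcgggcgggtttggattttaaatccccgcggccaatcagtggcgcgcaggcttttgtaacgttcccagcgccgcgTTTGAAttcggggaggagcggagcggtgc

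The E2F letters stood in 48.6% of 37 promoters of the G1-S list, in 6.25% of 32 promoters of the G2/M list and in 8.5% of tested protein-coding genes. The CHR letters stood in 5.41% of the G1-S promoters, in 50% of the G2/M promoters and in 8.93% of tested protein-coding genes. Among all 27305 promoters the shares were 5.93% for E2F and 13.6% for CHR. As with the NF-kB list, these shares describe the lists and are no test. By course, the E2F share of early falls ran from 4.29% (undecided) to 14.7% (grew), with 9.34% for those that faded in part.

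The kinases and inhibitors at the drug's own node also moved apart. Of 17 genes of the cyclin D, CDK and CDK inhibitor list, 9 were called higher and 5 lower at 24 h (median 0.36, and above 0 under each scaling tried). These were 52.9% and 29.4% of the list, against 32.6% and 30.3% of all genes. CCND2, cyclin D2, averaged 239.9 CPM in untreated cells, 912 CPM at 6 h and 1176 CPM at 24 h and so grew slightly, with a 24 h minus 6 h change of 0.37 ± 0.05 (SE, adjusted p = 9.11e-07), whereas CCND1, cyclin D1, averaged 278 CPM in untreated cells, 521 CPM at 6 h and 255 CPM at 24 h and was not called against untreated cells at 24 h (log2 change -0.12). CDKN1A, the p21 inhibitor, averaged 127 CPM in untreated cells, 367 CPM at 6 h and 212 CPM at 24 h, a log2 change of -0.79 ± 0.06 (SE, adjusted p = 2.34e-11). RBL1 and RBL2, the RB relatives p107 and p130, rose by 1.08 ± 0.10 (SE, adjusted p = 1.92e-09) and 1.06 ± 0.07 (SE, adjusted p = 1.82e-12); at 24 h RBL1 was still below untreated cells (-0.89, adjusted p = 9.54e-09), while RBL2 was not called against them (0.06, adjusted p = 0.417). CDK4 was not called, at 0.04 (95% interval -0.07 to 0.16), and CDK6 was lower, at -0.50 ± 0.07 (SE, adjusted p = 2.9e-06).

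Genes of BMP and Hedgehog signalling included returns from an early fall. BMPs act through receptors and SMAD proteins that switch on the ID genes and their own inhibitors SMAD6 and SMAD7, and Hedgehog ligands act through PTCH1 and SMO on the GLI factors. Of 21 Hedgehog and Wnt genes, 13 had been called lower at 6 h than in untreated cells (33.3% of all genes), with a list median of -1.35. At 24 h against 6 h, 9 were called higher (42.9%, against 32.6% of all genes) and 5 lower (23.8%, against 30.3%). The median was 0.03, and -0.01 with DESeq2 size factors. PTCH1, the Hedgehog receptor, had 41.3, 40.3 and 39.4 CPM at 24 h, against 8.38, 9.03 and 8.01 CPM at 6 h, a log2 change of 2.25 ± 0.08 (SE, adjusted p = 1.36e-16). Untreated cells had 103, 119 and 117 CPM. GLI3, a Hedgehog transcription factor, had 99.9, 95.7 and 83.4 CPM at 24 h, against 26.5, 23.2 and 19.9 CPM at 6 h, a log2 change of 2.00 ± 0.10 (SE, adjusted p = 2.72e-14). Untreated cells had 122, 128 and 130.4 CPM. The coreceptor genes BOC and CDON and the transducer SMO also rose, by 1.11, 0.62 and 1.43. GLI1, the best-known target of the pathway, was not called, at 0.03 (95% interval -0.20 to 0.25), nor was GLI2, at 0.12 (95% interval -0.02 to 0.25). NKD1, a Wnt feedback inhibitor, fell, with 19.9, 20.4 and 22.2 CPM at 24 h, against 69.4, 66.4 and 54.4 CPM at 6 h.

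The BMP and TGF-beta list split, with 10 members higher and 12 lower of 24 (11 higher and 10 lower with no scaling factors). BMP4, a BMP ligand, had 37.7, 35.6 and 33.4 CPM at 24 h, against 9.42, 7.01 and 6.83 CPM at 6 h, a log2 change of 2.20 ± 0.10 (SE, adjusted p = 4.56e-15). Untreated cells had 102, 105 and 97.8 CPM. ATOH8, a BMP-responsive transcription factor, had no count at 6 h in 3 libraries, against 51 at 24 h, which puts 24 h at least 17.4-fold higher; untreated libraries held 242 counts. Of the ID genes, which encode inhibitors of differentiation factors, ID1, ID3 and ID4 rose, by 0.75, 0.26 and 1.47, and ID2 was not called, at 0.03 (95% interval -0.23 to 0.29). TGF-beta-linked members were among those that went down. PMEPA1, a feedback inhibitor of TGF-beta receptors, averaged 634 CPM in untreated cells, 1683 CPM at 6 h and 731 CPM at 24 h. SMURF1, a ubiquitin ligase of the pathway, averaged 50.8 CPM in untreated cells, 117 CPM at 6 h and 41.6 CPM at 24 h. The 2 inhibitory SMAD genes thus moved apart: the log2 change was 3.16 for SMAD6 and -0.97 for SMAD7.

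Lysosomal genes were more often higher than lower at 24 h against 6 h. Lysosomal hydrolases and membrane proteins share a coordinated programme under the MiT/TFE factors TFEB, TFE3 and MITF, and the V-ATPase acidifies the organelle. Of 44 lysosomal genes, 23 were called higher (52.3%, against 32.6% of all genes) and 10 lower (22.7%, against 30.3%) at 24 h. The median was 0.20, and above 0 under each scaling tried. Above untreated cells were 34 at 24 h (23.3% of all genes) and 32 at 6 h (31.6% of all genes). MANBA, beta-mannosidase, had 15.9, 18.9 and 16.1 CPM in untreated cells, 21.6, 17.7 and 16.6 CPM at 6 h and 42.2, 42.2 and 42 CPM at 24 h, a late rise of 1.18 ± 0.11 (SE, adjusted p = 1.54e-09) between 24 h and 6 h. CTSC, cathepsin C, had 92.7, 93.5 and 103 CPM in untreated cells, 81.3, 85.6 and 84.1 CPM at 6 h and 151, 155 and 159.7 CPM at 24 h. NEU1, the lysosomal sialidase, averaged 6.31 CPM in untreated cells, 13.5 CPM at 6 h and 23.7 CPM at 24 h. CTSK and CTSL, the cathepsins K and L, fell, at -2.05 ± 0.32 (SE, adjusted p = 4.81e-06) and -0.96 ± 0.06 (SE, adjusted p = 2.45e-12).

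Of 17 V-ATPase subunits, 10 were called lower and 2 higher (median -0.28), a majority that was lost with no scaling factors, where 5 were lower and 5 higher, and with limma on log2(TPM + 1), where 5 were lower and 4 higher. ATP6V1B2 had 87.5, 88.7 and 90.1 CPM in untreated cells, 206, 198 and 192 CPM at 6 h and 127, 125 and 129 CPM at 24 h, a log2 change of -0.64 ± 0.06 (SE, adjusted p = 6.24e-10). ATP6V1E1 had 53.6, 57.7 and 54.9 CPM at 24 h, against 81.1, 89.1 and 89.5 CPM at 6 h. Both stayed above untreated cells at 24 h, by 0.52 and 0.45. Called above untreated cells at each time were 14 of 17 subunits (31.6% of all genes at 6 h, 23.3% at 24 h).

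Autophagy and MiT/TFE genes divided, with 12 higher and 13 lower of 30 (17 and 8 with no scaling factors). Their shares were 40.0% and 43.3%, against 32.6% and 30.3% of all genes. GPNMB, a lysosomal glycoprotein and MiT/TFE target, had 15.6, 14.8 and 17.1 CPM in untreated cells, 27.9, 24 and 23.2 CPM at 6 h and 127, 133 and 117 CPM at 24 h, a log2 change of 2.33 ± 0.11 (SE, adjusted p = 1.13e-14). RRAGD, a Rag GTPase of the mTORC1 pathway and a MiT/TFE target, averaged 10.6 CPM in untreated cells, 20.4 CPM at 6 h and 41.2 CPM at 24 h. MAP1LC3B, the LC3B protein of autophagosomes, peaked early, with 74.4, 67.8 and 68 CPM in untreated cells, 186, 195 and 203 CPM at 6 h and 67.9, 79.1 and 66.2 CPM at 24 h. SQSTM1, the autophagy receptor p62, averaged 239.7 CPM in untreated cells, 928 CPM at 6 h and 531 CPM at 24 h. The kinase gene ULK1 dipped early, with 49.4, 47.4 and 52.8 CPM in untreated cells, 13.9, 11.6 and 12.2 CPM at 6 h and 28.6, 32.9 and 25.4 CPM at 24 h, and its 24 h minus 6 h change was 1.20 ± 0.09 (SE, adjusted p = 1.15e-10).

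**Figure D4:**
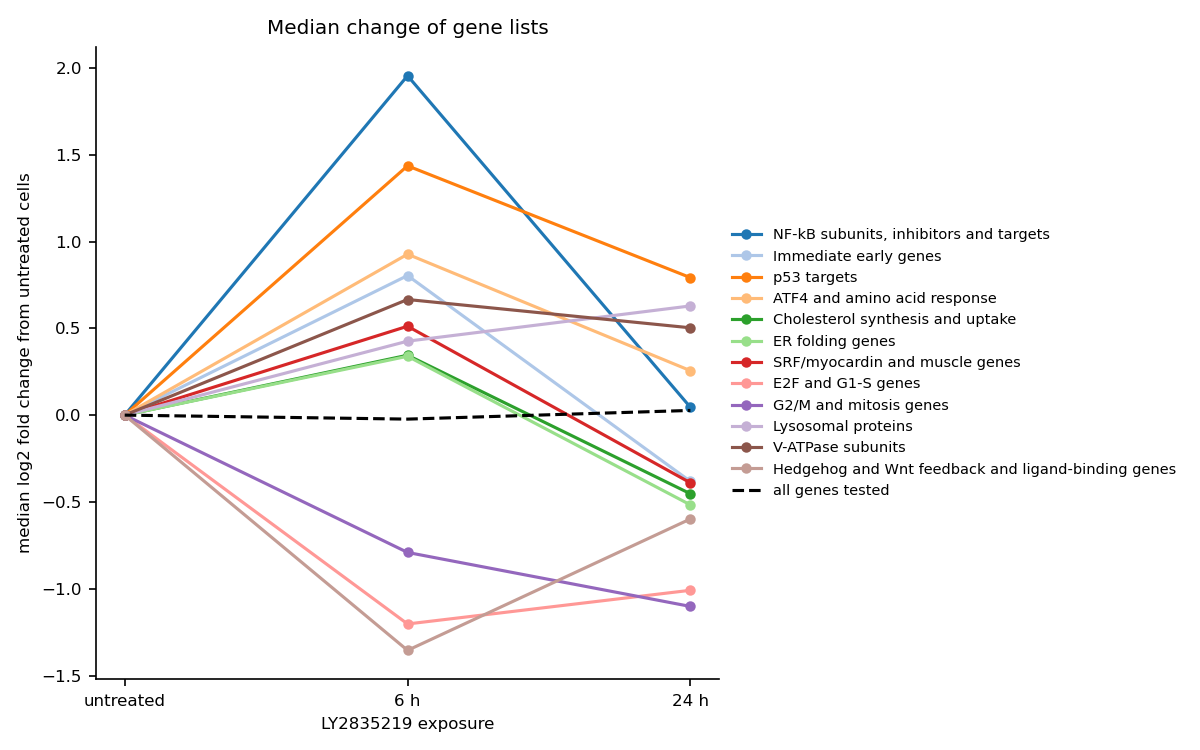
Median log2 change from untreated cells (y axis) of 12 gene lists and of all genes tested at 6 h and 24 h of LY2835219 (x axis, untreated set to 0); lines join the medians. The NF-kB list peaks at 1.96 at 6 h and is near 0 at 24 h, the G2/M list lies at -0.79 at 6 h and -1.10 at 24 h, and the lysosomal list at 0.43 and 0.63.

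The cholesterol, ER folding and ATF4 lists had medians below 0 at 24 h against 6 h. Cholesterol synthesis genes answer to SREBP2, and ER folding genes to the unfolded protein response. Of 27 cholesterol genes, 18 were lower and 5 higher at 24 h (median -0.82). The median against untreated cells was 0.34 at 6 h and -0.45 at 24 h. At 24 h, 20 of 27 were called below untreated cells (24.6% of all genes). HMGCS1, an early enzyme of the pathway, had 140.0, 111 and 118 CPM in untreated cells, 326, 329 and 369 CPM at 6 h and 84.8, 92.5 and 95.5 CPM at 24 h, a 24 h minus 6 h change of -1.91 ± 0.08 (SE, adjusted p = 2.36e-15). The sterol exporters ABCA1 and ABCG1 were among the 5 that rose, by 0.79 and 1.20.

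Of 21 ER folding genes, 18 were lower and 1 higher at 24 h (median -0.87), and 15 were called below untreated cells (24.6% of all genes). HSPA5, the chaperone BiP, had 754, 765 and 684 CPM in untreated cells, 1355, 1358 and 1322 CPM at 6 h and 400.4, 388 and 387 CPM at 24 h, a log2 change of -1.78 ± 0.05 (SE, adjusted p = 1.38e-17). HERPUD1, a factor of ER-associated degradation, had 70.9, 63.2 and 63 CPM in untreated cells, 120.2, 143 and 130.3 CPM at 6 h and 36, 32.8 and 37.6 CPM at 24 h. The 1 member that rose was ATF6, by 0.18, and with DESeq2 size factors no member was called higher. Of 33 ATF4 and amino acid response genes, 24 were lower and 6 higher (median -0.70). SLC7A5, the large neutral amino acid transporter LAT1, had 526, 505 and 485 CPM in untreated cells, 1217, 1346 and 1266 CPM at 6 h and 282, 278 and 249 CPM at 24 h, a log2 change of -2.24 ± 0.08 (SE, adjusted p = 9.35e-17). PPP1R15A, the phosphatase subunit GADD34, had 33.6, 32.4 and 33.1 CPM in untreated cells, 264, 289 and 260.4 CPM at 6 h and 80.1, 80.7 and 70.3 CPM at 24 h. At 24 h SLC7A5 lay below untreated cells and PPP1R15A above them. DDIT3 and DDIT4, a transcription factor and an mTORC1 inhibitor of the stress response, stood apart: DDIT3 was not called, at 0.08 (95% interval -0.23 to 0.39), and DDIT4 rose by 0.25 ± 0.10 (SE, adjusted p = 0.0314).

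The p53 protein switches on genes of cell cycle arrest, repair and apoptosis. Of 27 p53 targets, 23 were called above untreated cells at 6 h (31.6% of all genes) and 24 at 24 h (23.3% of all genes). Between the 2 times, 17 were lower and 9 higher at 24 h than at 6 h. The medians against untreated cells were 1.44 at 6 h and 0.79 at 24 h. The falls made up 63.0% of the list, against 30.3% of all genes, but with limma on log2(TPM + 1) 10 were lower and 9 higher. TIGAR, a regulator of glycolysis, had 43.9, 37.8 and 33.2 CPM in untreated cells, 143, 143 and 135 CPM at 6 h and 46.2, 47.6 and 52.1 CPM at 24 h, a 24 h minus 6 h change of -1.53 ± 0.08 (SE, adjusted p = 1.87e-13). AEN, an apoptosis-enhancing nuclease, had 91.8, 84.6 and 92.2 CPM in untreated cells, 373, 369 and 357 CPM at 6 h and 156, 163 and 159 CPM at 24 h. MDM2, the ubiquitin ligase of p53, averaged 101 CPM in untreated cells, 328 CPM at 6 h and 175 CPM at 24 h. The repair gene DDB2 and the mitochondrial reductase FDXR rose further, by 0.79 ± 0.07 (SE, adjusted p = 1.1e-09) and 0.71 ± 0.08 (SE, adjusted p = 6.74e-08), and BAX, a pore-forming BCL2 protein, rose by 0.44.

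Of 16 apoptosis genes of the BCL2 family, 6 were higher (37.5%, against 32.6% of all genes) and 7 lower (43.8%, against 30.3%) at 24 h than at 6 h. The split was 7 and 7 with upper-quartile or no scaling factors, and the median of -0.33 was 0.05 with limma on log2(TPM + 1). The anti-apoptotic MCL1 averaged 320.4 CPM in untreated cells, 897 CPM at 6 h and 347 CPM at 24 h, and was not called against untreated cells at 24 h (0.11, adjusted p = 0.091). The effector BAK1 took the same course, with 37, 35.6 and 36.1 CPM in untreated cells, 136, 141 and 128 CPM at 6 h and 42.2, 41.5 and 38.6 CPM at 24 h. Of the BH3-only genes, which promote apoptosis, 3 rose. BMF had 39.5, 51.1 and 45.7 CPM in untreated cells, 1.22, 1.58 and 1.43 CPM at 6 h and 8.7, 9.46 and 7.05 CPM at 24 h, a log2 change of 2.57 ± 0.22 (SE, adjusted p = 6.28e-10). BCL2L11, which encodes BIM, averaged 54.6 CPM in untreated cells, 21.8 CPM at 6 h and 42.5 CPM at 24 h. HRK rose late, with 12.1, 9.82 and 9.4 CPM in untreated cells, 11.7, 7.33 and 9.62 CPM at 6 h and 26.6, 26.1 and 24.3 CPM at 24 h. By edgeR with transcript length offsets the HRK change between 24 h and 6 h was not called (0.721, adjusted p = 0.0833). PMAIP1, the BH3-only protein NOXA, fell, with a log2 change of -1.10 ± 0.09 (SE, adjusted p = 1.17e-10).

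Regulators of transcription elongation include the kinase CDK9 with its cyclins T and the HEXIM proteins that restrain it. Of 26 such genes, 14 were lower and 9 higher at 24 h (9 lower and 11 higher with no scaling factors, 6 and 10 with limma on log2(TPM + 1)). Under TMM this was 53.8% lower and 34.6% higher, against 30.3% and 32.6% of all genes. CDK9 averaged 69 CPM in untreated cells, 169 CPM at 6 h and 76.4 CPM at 24 h. CCNT1, a cyclin T, had 83.8, 76.6 and 75.7 CPM in untreated cells, 168, 173 and 186 CPM at 6 h and 72.8, 73.2 and 75 CPM at 24 h. ELL2, an elongation factor, had 77.2, 68.4 and 67.6 CPM in untreated cells, 121, 154 and 156 CPM at 6 h and 40.8, 46 and 42.5 CPM at 24 h. HEXIM1 moved opposite, averaging 126 CPM in untreated cells, 19.6 CPM at 6 h and 37.2 CPM at 24 h, as did POLR2A, the largest subunit of RNA polymerase II, averaging 79.6 CPM in untreated cells, 24.6 CPM at 6 h and 38.7 CPM at 24 h. The 24 h minus 6 h changes were -1.15 ± 0.06 (SE, adjusted p = 7.7e-14) for CDK9, 0.92 ± 0.07 (SE, adjusted p = 1.53e-10) for HEXIM1 and 0.65 ± 0.15 (SE, adjusted p = 0.000725) for POLR2A.

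In the MYC network, 6 genes were higher (42.9%, against 32.6% of all genes) and 5 lower (35.7%, against 30.3%) of 14. MYC averaged 83.6 CPM in untreated cells, 156 CPM at 6 h and 96.8 CPM at 24 h, a log2 change of -0.69 ± 0.07 (SE, adjusted p = 1.31e-08). MYCL and MYCN, its relatives, had lost most of their level at 6 h and regained a small part: MYCL had 19.2, 22.3 and 18.9 CPM in untreated cells, 1.1, 2.21 and 1.3 CPM at 6 h and 5.36, 6.88 and 5.18 CPM at 24 h. MYCN had 5.78, 6.19 and 5.16 CPM in untreated cells, 0.0612, 0.126 and 0.186 CPM at 6 h and 0.531, 0.275 and 0.674 CPM at 24 h. Its 6 h level was close to the floor, and limma on log2(TPM + 1) did not call its change between 24 h and 6 h (0.279, adjusted p = 0.0568). TXNIP, a glucose-responsive inhibitor of thioredoxin, rose late, with 40.5, 61.6 and 60.6 CPM in untreated cells, 42.5, 43.2 and 39.5 CPM at 6 h and 199, 234 and 213 CPM at 24 h, a 24 h minus 6 h change of 2.37 ± 0.17 (SE, adjusted p = 3.09e-11), and its relative ARRDC4 averaged 9.47 CPM in untreated cells, 20.1 CPM at 6 h and 55.1 CPM at 24 h.

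Among 25 genes known from Ewing sarcoma studies as activated by EWS-FLI1, 9 were higher (36.0%) and 8 lower (32.0%), shares near the 32.6% and 30.3% of all genes. Of 17 known as repressed, 1 was higher and 14 were lower (median -0.78). SOX2, a stem cell factor on the activated list, had 19.5, 24.2 and 23.4 CPM in untreated cells, 1.16, 1.45 and 1.24 CPM at 6 h and 5.68, 6.38 and 6.07 CPM at 24 h, a 24 h minus 6 h change of 2.23 ± 0.22 (SE, adjusted p = 7.11e-09). STEAP2, a metalloreductase, had 17.7, 14 and 12.9 CPM in untreated cells, 9.23, 10.9 and 8.75 CPM at 6 h and 25, 25.1 and 24.4 CPM at 24 h. On the repressed list, CRYAB, a small heat shock protein, had 103, 108 and 110.5 CPM in untreated cells, 61.1, 73.5 and 69.9 CPM at 6 h and 21, 22.2 and 19.6 CPM at 24 h and THBS1, thrombospondin, averaged 771 CPM in untreated cells, 547 CPM at 6 h and 269 CPM at 24 h. The repressed list shares TAGLN, CTGF, CYR61, LOX, COL3A1, COL1A1 and FN1 with the SRF, YAP and collagen lists. Every drug-treated library used here carried EWS-FLI1, and the part of the fusion in these changes was not tested.

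**Figure D5:**
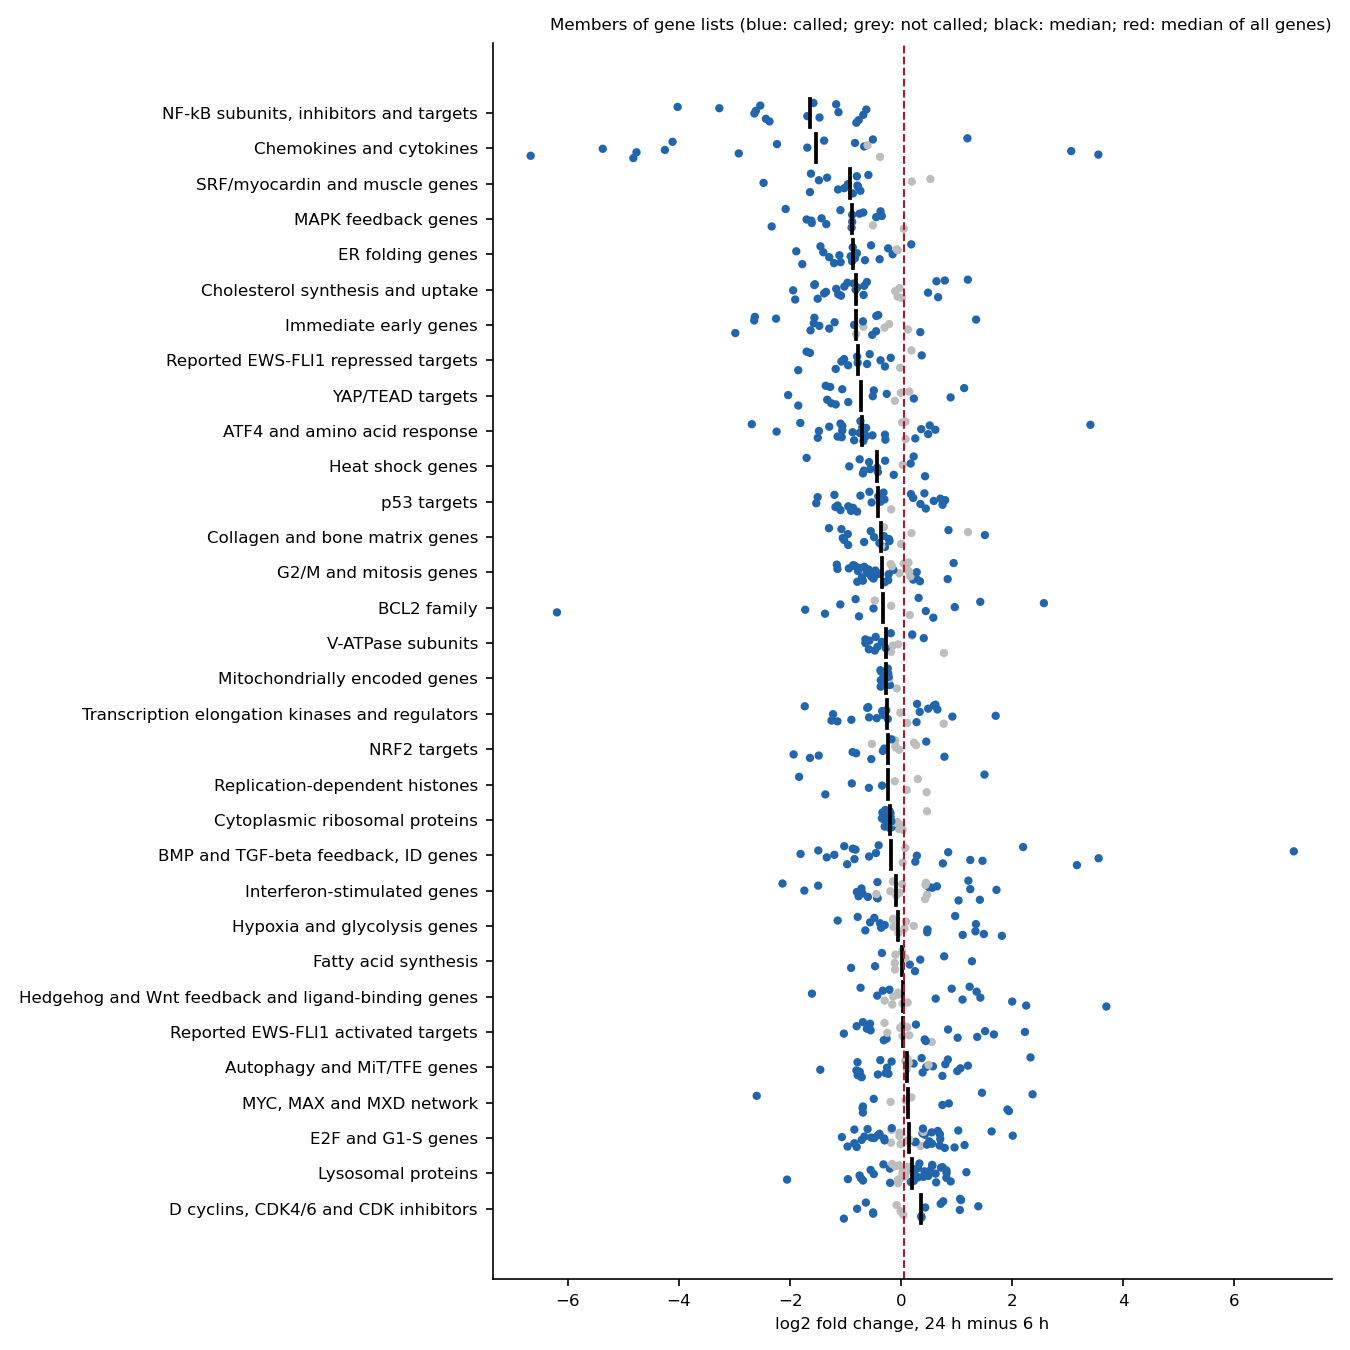
Log2 change of 24 h minus 6 h (x axis) for each measured member of the gene lists (rows, ordered by median); blue points were called, grey points were not, black bars are list medians and the red line the median of all genes, 0.05. The NF-kB list lies wholly to the left of 0, while the BMP, Hedgehog and MYC lists spread to both sides.

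Smaller lists gave mixed results. Of 18 NRF2 targets, 9 were lower and 2 higher (6 lower and 5 higher with no scaling factors), with TXNRD1, thioredoxin reductase, averaging 195 CPM in untreated cells, 403 CPM at 6 h and 105 CPM at 24 h and HMOX1, heme oxygenase, averaging 26.9 CPM in untreated cells, 159.5 CPM at 6 h and 51.1 CPM at 24 h. Of 15 heat shock genes, 11 were lower and 3 higher (1 higher with DESeq2 size factors). Of 3 metallothioneins tested, MT2A was lower at 24 h, with a log2 change of -1.78 ± 0.06 (SE, adjusted p = 1.67e-16), and MT1E changed sign with the scaling. Of 29 interferon-stimulated genes, 8 were higher and 11 lower (9 and 6 with no scaling factors), led by GBP1, an interferon-induced GTPase, at -2.14 and IFI44 at 1.72. The interferon shares were 27.6% higher and 37.9% lower, near the 32.6% and 30.3% of all genes. Of 23 hypoxia and glycolysis genes, 8 were higher and 8 lower (11 and 5 with no scaling factors), with CA12, a carbonic anhydrase, at 1.81 and SLC2A1, the glucose transporter GLUT1, at -1.14. Both hypoxia shares were 34.8%, near the 32.6% and 30.3% of all genes. Of 13 fatty acid synthesis genes, 5 were higher and 3 lower (3 and 5 with DESeq2 size factors), with ELOVL6, an elongase, at 1.27 and FASN, fatty acid synthase, at -0.90. Of 21 collagen and bone matrix genes, 14 were lower and 2 higher (8 and 5 with no scaling factors, 7 and 2 with limma on log2(TPM + 1)), the rises being RUNX2 at 0.85 and SPP1, osteopontin, at 1.51.

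Late changes, by the class rule, are shown by 3 of the 4 genes with the largest change in each direction. TNNT2, cardiac troponin T, had 2.92, 1.87 and 2.7 CPM at 24 h, against 27, 33.7 and 34.2 CPM at 6 h and 28.5, 32.2 and 37.5 CPM in untreated cells, a late fall of -3.66 ± 0.19 (SE, adjusted p = 7.44e-14). KRT14, a basal keratin, had 1.65, 2.31 and 2.12 CPM at 24 h, against 13.3, 14.5 and 14.3 CPM at 6 h and 13.3, 18.2 and 17.1 CPM in untreated cells, a log2 change of -2.79 ± 0.21 (SE, adjusted p = 6.76e-11). PHLDA2, an imprinted gene known from growth of the placenta, had 0.637, 1.6 and 0.674 CPM at 24 h, against 11.1, 4.29 and 8.31 CPM at 6 h. Among the late rises, HTR3A, a serotonin-gated channel, had 6.05, 6.99 and 7.46 CPM at 24 h, against 0.917, 1.07 and 0.807 CPM at 6 h. SP140, a bromodomain protein best known from immune cells, had 14, 13 and 14.8 CPM at 24 h, against 2.63, 2.02 and 1.74 CPM at 6 h. FSTL4, a follistatin-like protein, had 13.2, 13.4 and 17.1 CPM at 24 h, against 2.63, 2.02 and 1.86 CPM at 6 h. In each of these 6 genes the 24 h libraries stood apart from both the 6 h and the untreated libraries.

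Genes that grew were few. RCAN2, a calcineurin inhibitor, had 4.86, 6.04 and 6.61 CPM in untreated cells, 13.8, 13.8 and 12.2 CPM at 6 h and 76.9, 81.7 and 75.3 CPM at 24 h, a 24 h minus 6 h change of 2.55 ± 0.13 (SE, adjusted p = 1.09e-13). RENBP, the renin-binding protein, had 2.04, 1.26 and 0.806 CPM in untreated cells, 3.12, 3.09 and 3.85 CPM at 6 h and 17.6, 19.1 and 18.7 CPM at 24 h. PDGFB, a platelet-derived growth factor chain, grew downwards, with 27.9, 30.9 and 33.4 CPM in untreated cells, 14.9, 13.1 and 17.3 CPM at 6 h and 2.92, 4.02 and 2.07 CPM at 24 h, a change of -2.33 ± 0.18 (SE, adjusted p = 1e-10). SPTB, the erythroid spectrin beta chain, had 60.8, 51.9 and 54.5 CPM in untreated cells, 25.8, 22.9 and 23.9 CPM at 6 h and 7.59, 6.49 and 7.57 CPM at 24 h. Among held genes, PRR16, a gene linked to cell size, had 30.7, 34.6 and 32.9 CPM in untreated cells, 3.3, 4.55 and 4.47 CPM at 6 h and 4.3, 5.28 and 3.94 CPM at 24 h. DGKI, a diacylglycerol kinase, had 1.12, 0.682 and 1.56 CPM in untreated cells, 5.01, 8.21 and 7.2 CPM at 6 h and 7.48, 8.58 and 9.8 CPM at 24 h. The 95% interval of the 24 h minus 6 h change was -0.19 to 0.45 for PRR16 and -0.33 to 1.01 for DGKI, and the interval of PRR16 lay within ±0.5. Neither gene stayed uncalled under every alternative. PRR16 was called higher by edgeR with no scaling factors (0.39, adjusted p = 0.0283) and by limma on log2(TPM + 1) (0.439, adjusted p = 0.00675). DGKI was called higher by limma on log2(TPM + 1) (1.373, adjusted p = 0.00126).

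Gene length and family were read as features that the classes did not use. Protein-coding genes spanning at least 200 kb were higher at 24 h than at 6 h in 46.0% of 1317 cases and lower in 18%, against 33.1% and 31.9% of all 15432 protein-coding genes, and their median log2 change was 0.32 after -0.36 at 6 h against untreated cells. For genes spanning 10 to 30 kb the shares were 29.2% higher and 36.2% lower. Such long genes made up 8.53% of tested protein-coding genes. Every class of early falls had a larger share: 13.5% faded in part, 10.9% faded to not called, 19.9% crossed, 11.2% held, 14.9% grew and 12.5% undecided. Of the early rises, the held class also had a larger share (11.1%). The other early rises had less: 5.52% faded in part, 4.46% faded to not called, 3.57% crossed, 7.32% grew and 5.81% undecided. Late rises had 13.6% and late falls 8.19%. Zinc finger genes named ZNF on chromosome 19 had a median of 0.02, with 48 called higher (20.2%) and 61 lower (25.6%).

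Cytoplasmic ribosomal protein genes and mitochondrially encoded genes are reported with their scaling. Under TMM, 24 of 32 ribosomal protein genes and 11 of 13 mitochondrial genes were lower at 24 h and none higher, with medians of -0.21 and -0.27; with no scaling factors 9 ribosomal protein genes were higher and none lower, and 1 mitochondrial gene was higher and none lower, so no direction is given for either. Ribosomal proteins, histones, keratins and other families have near-identical copies, among which estimated counts divide reads, and their values are uncertain by that.

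Markers of other cell types were read in the same libraries. The summed level of 14 epithelial markers was 460.0 to 487 CPM at 24 h and 836 to 871 CPM at 6 h, with 854 to 877 CPM in untreated cells, nearly all of it from KRT8 and KRT18. The 13 blood cell markers summed to 20.9 to 23.8 CPM at 24 h and 10.3 to 11.8 CPM at 6 h, of which CD68, a lysosomal glycoprotein, gave 18.4 and 8.29 CPM, while the pan-leukocyte gene PTPRC stayed at 0.89 and 0.829 CPM and CD3E was at 0 in all 9 libraries. The 12 endothelial markers summed to 22.3 to 26.5 CPM at 24 h and 24.7 to 27.5 CPM at 6 h, and the 15 neuronal markers to 619 to 716 CPM at 24 h and 417 to 462 CPM at 6 h, chiefly TUBB3, L1CAM, ENO2 and NEFL. Summed levels of 14 replication-dependent histone genes, whose RNA lacks a polyA tail, were 207 to 230 CPM at 24 h, 301 to 304 CPM at 6 h and 347 to 444 CPM in untreated cells. The part of these levels in the results above was not tested.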

How the data were processed

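Kallisto 0.46 and CASAVA are named, with the build hg38, in the submitters' processing notes; the transcript set and strandedness are not given in the sources used here. The labels name more than 1 library kit without saying which library each served. Per the file headers, each deposited table gives, for 188753 transcripts, an estimated count, a TPM value and an effective length. The authors' estimated counts were summed per gene over the 169797 transcripts found in GENCODE 29; unmatched transcripts held 2.59 to 2.74% of counts and were left out of tests. The sums, 16261034 to 20270637 counts in 18 libraries, were rounded. In edgeR 4.0.16 (R 4.3.3), genes were kept by filterByExpr and scaled by TMM, and a quasi-likelihood model with 1 mean for each of the 6 groups was fitted to 18 libraries (12 residual degrees of freedom, coefficient of variation 8.77%), so untreated groups shared the estimate of spread. P-values were adjusted by Benjamini-Hochberg over 16786 genes. The deposited TPM, as log2(TPM + 1), served a limma 3.58.1 alternative, and the deposited effective lengths an alternative with length offsets; DESeq2 1.42.0 gave others.

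No 2 replicates were the same library: the chi-square per gene between replicates was 4.02 to 10.9, where sampling noise gives about 1. Data were simulated for 16496 genes, of which 68, 66 and 66 were changed by 0.5, 1 and 2 on the log2 scale. The fit recovered 61.8%, 89.4% and 100% of these and called 8 of 16296 unchanged genes. The changed genes were drawn from genes above a minimum mean count, and all genes were given the coefficient of variation of 8.77%. The recovery therefore does not cover genes with few counts, and neither rate covers genes with a larger spread. How the fit performs when most genes change was not tested. Between 24 h and 6 h, 62.9% of genes were called.

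Gene lists, members and classes were chosen with earlier results of these data known. Genes were named when fixed by name, among the 12 largest rises and 12 largest falls with at least 5 CPM and no overlap of libraries, among the 4 members of a list with the largest called change, or among the 4 genes of a class with the largest change; other list members were named after their values were seen. Some genes that these rules name are not reported here. Promoters are 250 bases before RefSeq starts (GRCh38.p14), available for 11860 of 15432 protein-coding genes tested. Fits with other scalings, filters, units, library sets and a replicate block, and with each library left out, are given in the closing section.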

Additional observations from a re-analysis of the deposited data

How the results depend on the processing

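The number of genes called between 24 h and 6 h, 10554, was between 9935 and 10114 with 1 library of 24 h or 6 h left out, 10500 by DESeq2's Wald test, 10362 with the 9 EWS-FLI1 libraries, 10249 with the 6 treated libraries, 10601 without the filter on low counts, 8664 with transcript length offsets and 8874 with limma on log2(TPM + 1). Tested against a log2 change of 0.5 it was 5085, with 2859 higher and 2226 lower. Falls were fewer with no scaling factors (3228 called, 784 with a log2 change of at least 1) and with limma on TPM (2619 and 520). With no scaling factors, early rises were 984, of which 664 faded (281 in part, 338 to a level not called against untreated cells, 45 crossed) and 30 grew, and 263 early falls crossed. Without the filter, 235 early rises were undecided. With early changes taken by adjusted p alone, there were 5304 rises, of which 3739 faded (987, 2014 and 738 by place), 896 held, 308 grew and 361 were undecided, and 5586 falls, of which 3905 faded (2104 to not called, 636 crossed), 934 held, 413 grew and 334 were undecided. With a library left out, undecided rises were between 118 and 224, undecided falls between 122 and 219 (219 without 24 h replicate 3), and falls that crossed between 100 and 151 (100 without untreated replicate 3). The cause of these shifts was not tested, apart from those that follow from a changed rule, filter or number of libraries. MT1E changed sign, to 0.009 with no scaling factors (adjusted p = 0.946) and 0.084 with limma on TPM (adjusted p = 0.587), each on the log2 scale, against -0.25 with edgeR and TMM. Of 181 named genes called, 153 kept direction and call under every alternative and 28 lost the call under at least 1. Some named genes that were not called gained a call under an alternative, among them PRR16 and DGKI.

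No shared effect of the replicate number was seen: the correlations of deviations between same-numbered 24 h and 6 h libraries were -0.01, 0.02 and 0.02. Such correlations cannot show whether replicates were grown or processed together. With the replicate number as a block, 10342 genes were called.

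Depth limits the genes near 0: CD200R1, CXCL5 and CCL7 had 1 or 2 counts over the 24 h libraries, and their folds carry counting error. The same holds for MYCN, which was near 0 at 6 h. All 9 libraries came from 1 line, the 6 treated ones at 1 dose, with no vehicle named for the untreated cells, and the times rest on titles that the treatment text contradicts.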
